A study of Mus musculus with 4 samples.

Results

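The genes described here are 9 regulators of entry into the cell cycle: the CIP/KIP inhibitors *Cdkn1a*, *Cdkn1b* and *Cdkn1c*, the p53 target *Rprm*, the D cyclins *Ccnd1*, *Ccnd2* and *Ccnd3*, and the transcription factors *Myc* and *Mycn*. They are 9 of the 32285 genes counted, each found as 1 row by its symbol. They were chosen by name with measured values in view: *Rprm* was selected on its difference between genotypes in endocardial cells, and *Cdkn1c* on its high level in the endocardium. Those values are therefore given as descriptions without a test. The data are 10x Genomics transcriptomes of single cells from mouse hearts at E10.5, in which each captured transcript carries a unique molecular identifier (UMI). Both genotypes were homozygous for a floxed *Tie2* (*Tek*) allele (Tie2flfl). Control libraries 5 and 7 were labelled with the floxed allele alone. The mutants, *Tie2-cko* libraries 6 and 8, also carried Nfatcre, by the methods a Cre at *Nfatc1*, which is active in endocardial cells (EdCs) and their descendants. A pair of values is given in the order 5 then 7 for the controls and 6 then 8 for the mutants. The methods give 2 hearts of each genotype from 1 litter of mixed strain (129 and C57/BL6). The labels do not say that the libraries came from separate embryos, so that p-values measure at most the spread between these libraries.

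As background, D cyclins bind CDK4 and CDK6, and the complex phosphorylates RB, which frees E2F factors to switch on the genes of DNA replication. The CIP/KIP proteins p21 (*Cdkn1a*), p27 (*Cdkn1b*) and p57 (*Cdkn1c*) bind cyclin and CDK complexes and hold cells before S phase, whereas the product of *Rprm* is known for arrest before mitosis. MYC and MYCN drive growth and raise the transcription of cell cycle genes, and *Mycn* is required for growth of the ventricular wall in the embryo. In the endothelium FOXO1 is known to restrain growth and to raise CIP/KIP genes, and TIE2 signalling through AKT keeps FOXO1 out of the nucleus.

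Promoters of 5 of the 9 genes (*Cdkn1a*, *Cdkn1b*, *Rprm*, *Ccnd3* and *Mycn*) were found in the RefSeq table of build GRCm38.p6, with 7 start sites in all, and were searched from 250 bases before to 50 after each start on both strands. The letters searched were TTTGGCGC or TTTCGCGC for E2F, GTAAACA for FOXO and CACGTG for the E-box that MYC binds. E2F letters stood in 0.813% of all 32851 promoters, FOXO letters in 3.65% and the E-box in 7.15%. Only *Mycn*, with 3 E2F matches at positions -183, -179 (reverse strand, overlapping the match before it) and -168, and *Ccnd3*, with 1 FOXO match at position -243 of its upstream start, held any of them in these windows. The stretches around these matches are shown with the matches in capitals. They are chr12:12941957-12942059 on the minus strand and chr17:47504801-47504854 on the plus strand.
Mycn: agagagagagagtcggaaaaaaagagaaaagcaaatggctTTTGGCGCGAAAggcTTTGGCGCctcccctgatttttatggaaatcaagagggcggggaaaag
Ccnd3: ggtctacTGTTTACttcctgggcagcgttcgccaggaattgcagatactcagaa
A match describes letters only and says nothing about binding.

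The files held 169361996 to 259775540 UMIs per library, and 33419 cells remained after filters and removal of doublets, 5684 to 10097 per library, with a median of 14878 to 25875 UMIs. Pairs of libraries shared 29 to 62 barcodes. Cells were clustered without the genes described here and named from marker lists, which gave 1556 chamber EdCs, 1166 cushion EdCs, 330 vascular endothelial cells, 12228 cardiomyocytes (CMs) in 4 regions, 3408 mesenchymal cells (MCs) and 1554 epicardial cells among 13 cell types. Cells led by the liver genes *Ttr*, *Afp* and *Apoa2* numbered 245 and 319 in libraries 5 and 6 and 0 and 52 in libraries 7 and 8, so that libraries 5 and 6 held more of these cells from outside the heart. *Tek*, the deleted gene, stood at 0.894 and 1.01 UMIs per 10000 in chamber EdCs of the controls, against 0.125 and 0.153 in the mutants. The fitted log2 fold change of *Tek* was -2.58 (standard error 0.20, adjusted p = 0.0166 by edgeR) in chamber EdCs and -2.48 in cushion EdCs. In vascular endothelial cells *Tek* was 0.629 to 0.774 in all 4 libraries and the genotypes overlapped.

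*Cdkn1c*, which encodes p57 and is an imprinted inhibitor of cell division, was highest in chamber EdCs and second highest in cushion EdCs. A level is the average over cells of a gene's UMIs per 10000 UMIs of the cell. Levels are compared only within a gene, as they are not scaled by length. *Cdkn1c* lies at chr7:143458339-143461050 on the minus strand (ENSMUSG00000037664, GRCm38). In chamber EdCs the level was 110 and 94.6 in the controls, against 132 and 73.6 in the mutants. In cushion EdCs it was 50.5 and 47.9 in the controls, against 60.3 and 35.3 in the mutants. The lowest chamber library thus lay above the highest cushion library. Epicardial cells followed with 33.3 to 44.5, a range that overlapped the cushion EdCs. Outflow tract CMs held 23.8 to 32.1, ventricular CMs 17.2 to 22.8, MCs 12.1 to 16.4 and vascular endothelial cells 6.44 to 11.3. Endothelium outside the endocardium therefore held *Cdkn1c* at a level near those of atrial CMs (6.49 to 8.61) and epithelial cells (6.33 to 9.90). Red blood cells, taken as a guide to free RNA in droplets, held 0.312 to 0.874. They are no clean guide for every gene, as they held *Ccnd3* at 2.35 to 3.09.

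**Figure D1:**
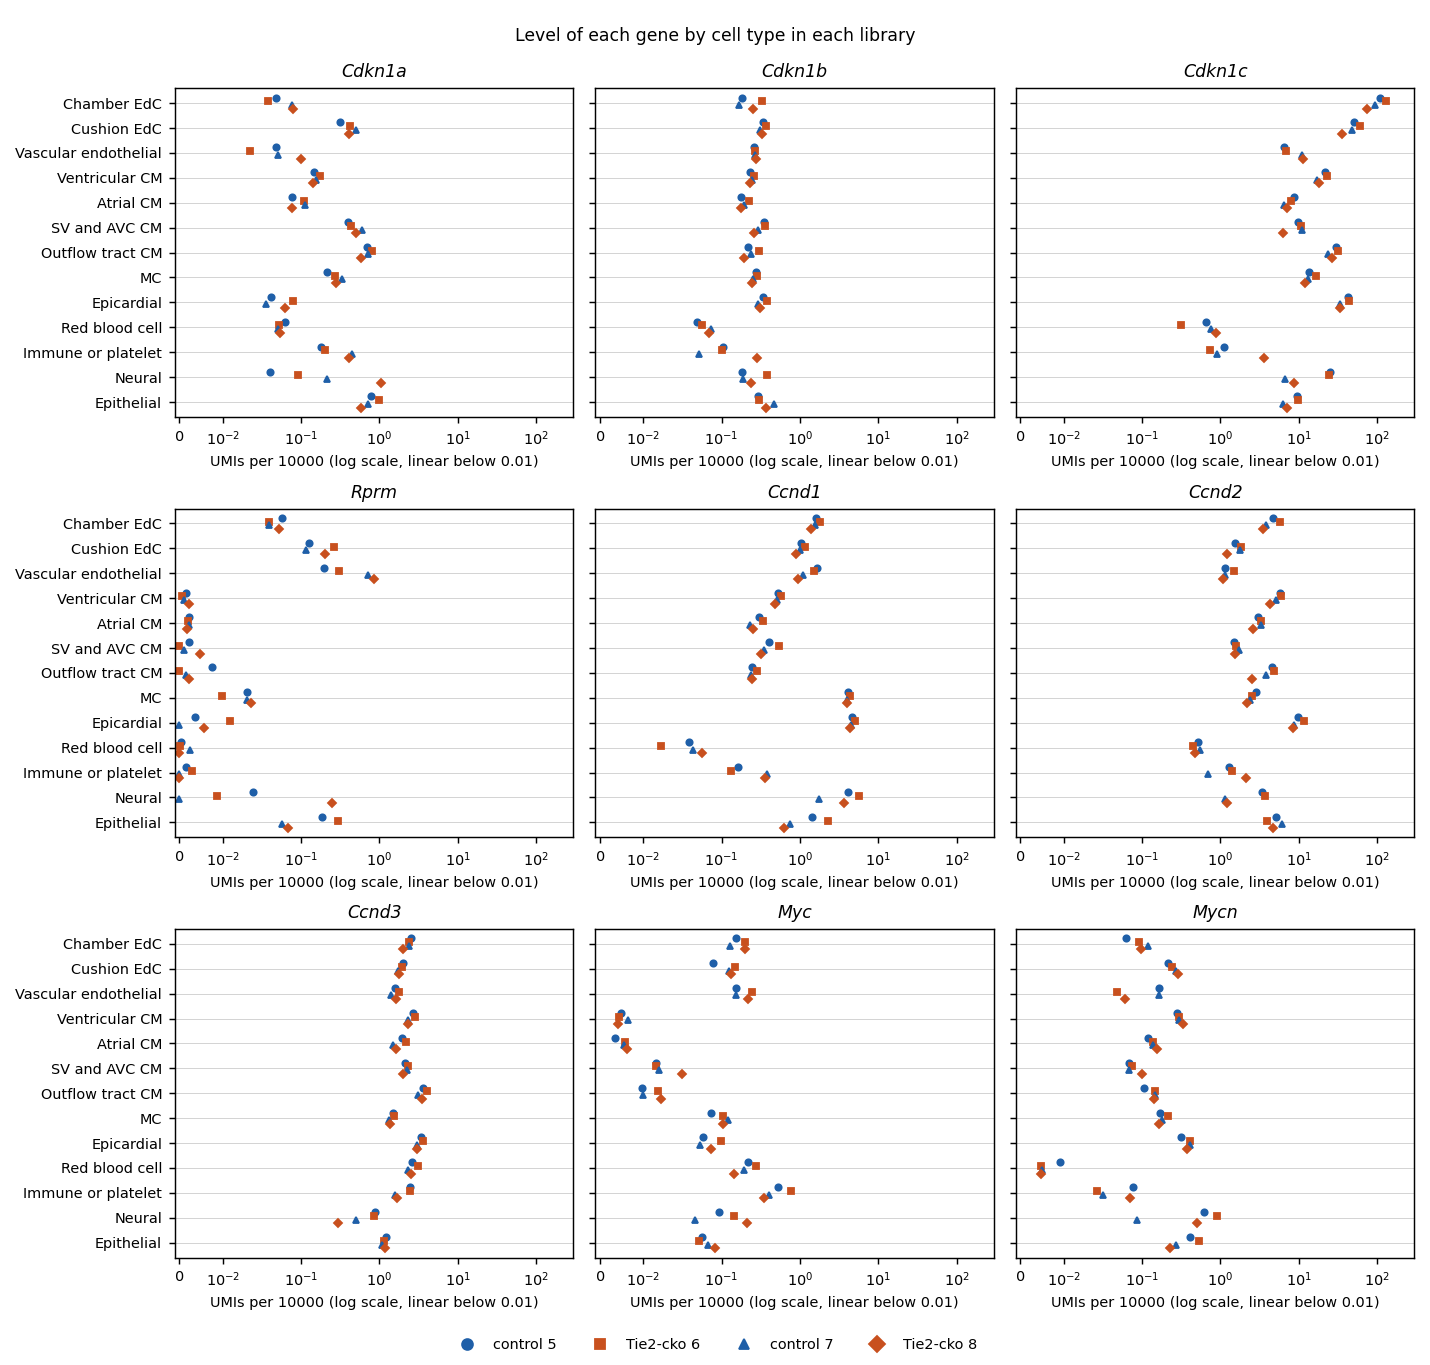
Level of each gene (horizontal axis, UMIs per 10000, log scale that turns linear below 0.01) in 13 cell types, with 1 point per library (blue, control 5 and 7; orange, Tie2-cko 6 and 8). *Cdkn1c* is highest in chamber EdCs (73.6 to 132), *Ccnd1* and *Ccnd2* in epicardial cells, and *Myc* is lowest in the CMs. *Rprm* has its highest mean in vascular endothelial cells (0.195 to 0.852), a range that overlaps cushion EdCs and epithelial cells.

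Within the cell types *Cdkn1c* was spread differently from cell to cell. Cells were thinned to 5500 UMIs, and those with fewer were left out, 21 and 42 chamber EdCs in the controls, against 12 and 33 in the mutants. The median chamber EdC held 61 and 55 *Cdkn1c* UMIs in the controls, against 74.5 and 40 in the mutants. The median cushion EdC held 15 and 15.5 in the controls, against 19 and 10 in the mutants. The 10th percentile of cushion EdCs was 1 to 3 UMIs and the 90th was 52 to 81, so that cushion EdCs ran from almost no *Cdkn1c* to levels seen in the middle of the chamber EdCs. A UMI of *Cdkn1c* was present in 99.3% to 100% of thinned chamber EdCs, in 96.7% to 99.1% of cushion EdCs and in 11% to 28.7% of red blood cells. In epicardial cells the median was 17 to 23 UMIs and the 10th percentile 8 to 12.

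**Figure D2:**
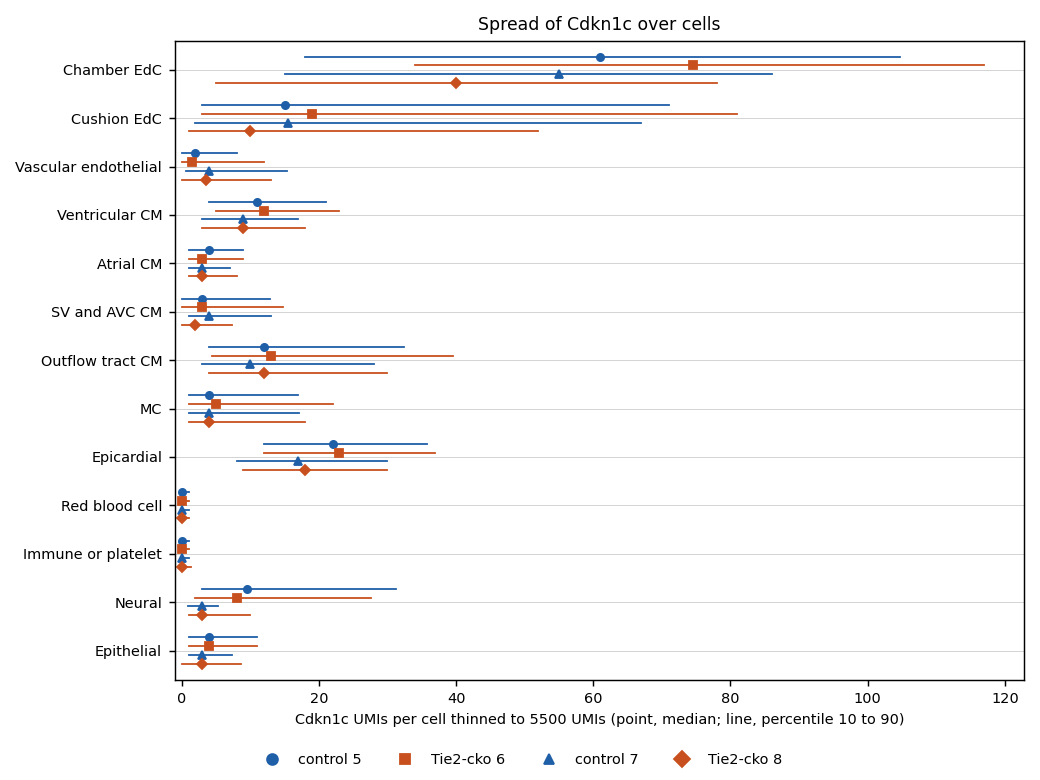
*Cdkn1c* UMIs per cell after thinning to 5500 UMIs (horizontal axis) by cell type and library, with the median as a point and percentiles 10 to 90 as a line. Chamber EdCs have medians of 40 to 74.5, and cushion EdCs reach as high as 81 at percentile 90 from medians of 10 to 19.

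*Cdkn1a*, which encodes p21 and is raised by p53, had nearly the reverse order in the endocardium. Cushion EdCs held 0.316 and 0.507 UMIs per 10000 in the controls, against 0.418 and 0.409 in the mutants. Chamber EdCs held 0.0480 and 0.0773 in the controls, against 0.0374 and 0.0788 in the mutants, which did not exceed red blood cells (0.0507 to 0.0632) beyond the spread. Likewise a UMI of *Cdkn1a* was found in 2.26% to 3.17% of thinned chamber EdCs and in 1.75% to 3.01% of red blood cells, against 12.7% to 15.4% of cushion EdCs. Chamber EdCs were thus not told apart from red blood cells. The highest levels were in epithelial cells (0.591 to 0.996) and outflow tract CMs (0.575 to 0.808), which overlapped. Epicardial cells (0.0362 to 0.0785) were at the level of red blood cells.

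*Cdkn1b*, which encodes p27, varied least of the 3 inhibitors among cardiac cell types. Its level was 0.312 to 0.371 in cushion EdCs, 0.290 to 0.382 in epicardial cells, 0.242 to 0.286 in MCs, 0.229 to 0.260 in ventricular CMs and 0.176 to 0.221 in atrial CMs. Each of the 13 cell types overlapped its neighbour in the order. Chamber EdCs ranged from 0.169 to 0.326, with the genotypes apart as described further on. Red blood cells held 0.0484 to 0.0743. In thinned cells a UMI of *Cdkn1b* was found in 10.1% to 15.9% of chamber EdCs and in 2.30% to 7.6% of red blood cells.

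*Rprm* was found mainly in endothelial, epithelial and neural cells and was nearly missing from CMs. It lies at chr2:54084093-54085552 on the minus strand (ENSMUSG00000075334, GRCm38). The highest mean level was in vascular endothelial cells, with 0.195 and 0.725 in the controls, against 0.308 and 0.852 in the mutants. These values followed the pairs 5 and 6 against 7 and 8 more than the genotype. Epithelial cells ran the other way, with 0.185 and 0.297 in libraries 5 and 6 and 0.0573 and 0.0678 in libraries 7 and 8. They pool clusters of unlike library make-up, so that these values may compare different kinds of epithelium, which was not tested. The cluster led by *Nepn* held 178 and 181 cells in libraries 5 and 6, against 4 and 5 in libraries 7 and 8. That led by *Nkx2-1* and *Wnt7b* held 79 and 78, against 0 and 1. Cushion EdCs held 0.114 to 0.267 and chamber EdCs 0.0385 to 0.0573. Cushion EdCs and epithelial cells each overlapped the range of vascular endothelial cells. Neural cells, which were few in libraries 7 and 8, ran from 0 to 0.246. In the 4 CM regions no library exceeded 0.00750, and red blood cells did not exceed 0.00242. Over all kept cells *Rprm* was counted 1600 times, in 2.68% of cells.

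The 3 D cyclins, the partners of CDK4 and CDK6, differed in where they were high. *Ccnd1* was highest in epicardial cells (4.43 to 5.06) and MCs (4.0 to 4.37), which did not overlap. It stood at 1.59 and 1.58 in chamber EdCs of the controls, against 1.79 and 1.38 in the mutants. Cushion EdCs held 1.03 and 1.02 in the controls, against 1.18 and 0.884 in the mutants. In CMs *Ccnd1* was low, from 0.229 in an atrial to 0.579 in a ventricular library, and in red blood cells it was 0.0168 to 0.0560. A UMI of *Ccnd1* was present in 45.8% to 54.8% of thinned chamber EdCs, in 28.8% to 35.9% of cushion EdCs and in 0.985% to 3.51% of red blood cells.

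*Ccnd2* was highest in epicardial cells (8.42 to 11.6), apart from ventricular CMs (4.29 to 6.01) in second place. Chamber EdCs held 4.73 and 3.88 in the controls, against 5.81 and 3.49 in the mutants. Cushion EdCs held 1.52 and 1.79 in the controls, against 1.84 and 1.21 in the mutants, so that all 4 chamber values lay above all 4 cushion values. Vascular endothelial cells (1.08 to 1.48) were near the cushion EdCs. *Ccnd3* ranged from 1.5 to 4.06 over the CM regions. It was the only D cyclin with a high level in red blood cells (2.35 to 3.09), which overlapped the chamber EdCs (2.0 to 2.52).

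*Myc* and *Mycn*, which encode related transcription factors, were distributed differently over the cell types. *Myc* was highest in immune cells or platelets (0.345 to 0.773) and stood at 0.154 and 0.130 in chamber EdCs of the controls, against 0.198 and 0.202 in the mutants. In ventricular CMs no library exceeded 0.00659. A UMI of *Myc* was present in 6.58% to 11.1% of thinned chamber EdCs against 0.231% to 0.513% of ventricular CMs, while red blood cells held it in 4.68% to 16.4%. The level of *Myc* in red blood cells was 0.145 to 0.275, which overlapped the chamber EdCs. *Mycn* was 0.279 to 0.335 in ventricular CMs and 0.313 to 0.415 in epicardial cells. Within the endocardium it was higher in cushion EdCs (0.213 to 0.286) than in chamber EdCs (0.0615 to 0.119), with no overlap, whereas *Myc* overlapped between them (0.0786 to 0.149 in cushion EdCs). Red blood cells held *Mycn* at no more than 0.00914.

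In a number of cell types, levels of some of these genes lay apart between libraries 5 and 6 and libraries 7 and 8. *Ccnd1* was higher in both libraries 5 and 6 than in both libraries 7 and 8 in 11 of 13 cell types and lower in 2. These counts were 9 and 2 for *Cdkn1c*, 9 and 0 for *Ccnd3*, and 7 and 0 for *Ccnd2*. *Cdkn1a* went the other way, being lower in libraries 5 and 6 in 6 cell types and higher in 1. The share of all genes that separated these pairs was not counted, so that these counts have no background beside them. They cannot be read as particular to these genes, and the 13 cell types, drawn from the same libraries, are not independent. Some cell types were small, such as neural cells with 14 and 19 cells in libraries 7 and 8. Libraries 5 and 6 also held most of the *Afp* cells, whose part in these differences was not tested.

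Across the CM regions the genes separated the outflow tract, the atrioventricular canal and the ventricle. In a finer clustering with 8 CM clusters, *Cdkn1a* was 0.652 to 0.810 in the atrioventricular canal cluster, led by *Gal*, and 0.577 to 0.786 in the outflow tract cluster, led by *Mybpc1*. In the other 6 CM clusters no library exceeded 0.257. *Cdkn1c* was 24.1 to 32.9 in the outflow tract and 7.29 to 11.1 in the atrioventricular canal, so that of these 8 clusters the outflow tract alone was high in both inhibitors. *Ccnd2* had its lowest levels in the atrioventricular canal (1.34 to 1.59) and sinus venosus (1.46 to 2.04) clusters, against 3.35 to 6.88 over the 4 ventricular clusters. *Mycn* was 0.0362 to 0.0865 in the atrioventricular canal and 0.228 to 0.383 over the ventricular clusters.

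Among the ventricular clusters, that led by *Nppa*, a marker of trabecular myocardium, held the highest *Nppa* (67.1 to 123) and *Bmp10*. Its *Cdkn1c* level was 20.6 to 28.4, that of the cluster led by *Myoz2* was 12.9 to 15.3, and these did not overlap. *Ccnd1* was also high in the *Nppa* cluster (0.622 to 0.704) and did not overlap the *Myoz2* cluster (0.395 to 0.527). The fourth ventricular cluster, led by *Cited1*, overlapped the *Nppa* cluster in both, with *Cdkn1c* at 15.4 to 22.5 and *Ccnd1* at 0.457 to 0.623. The cluster led by *Myh7* held *Cdkn1c* at 17.2 to 22.7, which overlapped the *Nppa* cluster. Its *Ccnd2* level was 5.40 to 6.88, against 4.19 to 6.25 in the *Nppa* cluster, which overlapped, and it had the highest *Top2a* of the ventricular clusters (3.79 to 5.11). In the *Nppa* cluster *Top2a*, a gene of mitosis, was 0.447 to 0.483.

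**Figure D3:**
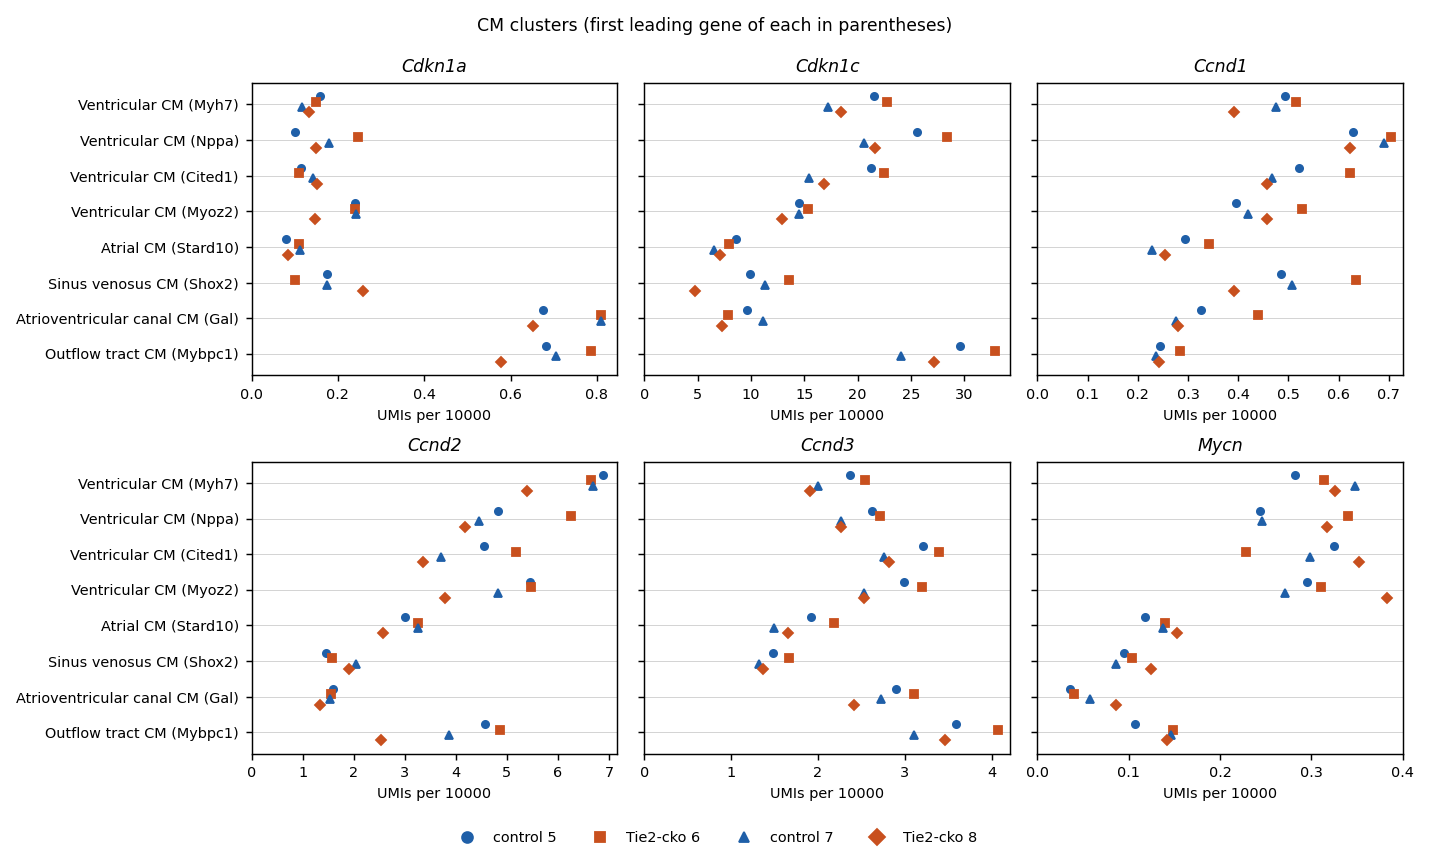
Levels of 6 of the genes (horizontal axes from 0, UMIs per 10000) in 8 CM clusters, each labelled with its name and leading gene, with 1 point per library (blue, control; orange, Tie2-cko). *Cdkn1a* stands at 0.577 to 0.810 in the atrioventricular canal and outflow tract clusters, and *Ccnd2* and *Mycn* are lowest in the sinus venosus and atrioventricular canal clusters.

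The profile of each gene over the 13 cell types was compared with those of 4495 genes that reached 0.5 UMIs per 10000 in some cell type, on log2 levels. Most like *Cdkn1c* were *Actn1*, *Nfib* and *Kif1b*, with Pearson correlations of 0.90, 0.89 and 0.89. Most like *Rprm* were *Sox17*, an endothelial transcription factor (0.86), *Sncg* (0.86) and *Ly6h* (0.85). Most like *Myc* were *Ddx27*, *Snhg9* and *Ppan* (0.94, 0.93 and 0.92), of which *Ddx27* and *Ppan* serve ribosome assembly. *Ccnd1* was most like *Dicer1*, *Rhobtb3* and *Ctnnbip1* (0.93, 0.92 and 0.91), *Ccnd2* like *Lrrc42*, *Zcchc3* and *Itgb3bp* (0.90, 0.87 and 0.85), and *Mycn* like *Bex2*, *Psip1* and *Tmeff1* (0.86, 0.85 and 0.85). *Cdkn1a* was most like *Malat1*, *Taf7* and *Tmem60* (0.75, 0.75 and 0.74). These are descriptions over 13 cell types of the same libraries, and *Cdkn1b* did not reach 0.5 in any cell type.

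Whether loss of *Tie2* changed these genes was asked on counts summed per library and cell type, with edgeR's quasi-likelihood test and Benjamini-Hochberg adjustment over all genes. In chamber EdCs *Myc* and *Cdkn1b* had both mutants above both controls, and neither passed the threshold of 0.05. *Myc* (chr15:61985391-61990374, plus strand, GRCm38) was counted 105 and 119 times in the controls, against 119 and 140 times in the mutants. These counts gave the levels above and a log2 fold change for *Myc* of 0.57 (standard error 0.17, adjusted p = 0.522). *Cdkn1b* stood at 0.182 and 0.169 in the controls, against 0.326 and 0.249 in the mutants, and the log2 fold change for *Cdkn1b* was 0.44 (standard error 0.17, adjusted p = 0.623). By the methods control and mutant libraries were matched by somite number, and neither they nor the labels say which with which. With a block for libraries 5 and 6 against 7 and 8, an assumed pairing, both passed, *Myc* at 0.57 (adjusted p = 0.00577) and *Cdkn1b* at 0.43 (adjusted p = 0.0172). That fit called 8.73% of all genes, 1004 of 11505. With the block, 4 libraries leave little spread to measure for a gene. The p-values of that fit, in every cell type, therefore rest largely on the spread borrowed from other genes. Leaving out each library in turn left *Myc* at 0.48 to 0.65 and *Cdkn1b* at 0.33 to 0.55.

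None of the 8 genes with a p in chamber EdCs was called, where 0.00869% of the 11505 genes tested were called, that is *Tek* alone. That 1 gene became 39 to 160 when a library was left out (55 without 5, 141 without 6, 39 without 7 and 160 without 8), 185 with no filter on low counts and 29 by DESeq2. By unadjusted p under 0.05 there were 2 of the 8, *Myc* and *Cdkn1b*, and 859 genes in all, and DESeq2 also called none of the 8. The third gene whose genotypes did not overlap in chamber EdCs was *Ccnd3*, with 2.52 and 2.39 in the controls, against 2.39 and 2.0 in the mutants, of which the nearest values were alike to 3 digits. Its log2 fold change was -0.23 (standard error 0.16, adjusted p = 0.795). Such non-overlap was found for 34.4% of all genes tested in chamber EdCs, so that 3 of 9 is near the background.

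For *Cdkn1c* and *Ccnd1* in chamber EdCs the mutants straddled the controls. The log2 fold change was -0.09 (standard error 0.21) for *Cdkn1c* and -0.04 (standard error 0.14) for *Ccnd1*, with adjusted p = 0.951 and 0.972 from edgeR. *Ccnd2* had a difference on the log2 scale of 0.11 (standard error 0.18) and *Mycn* of 0.19 (standard error 0.26). These errors leave room for differences that the 4 libraries cannot show.

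*Rprm* stood higher in the mutants in cushion EdCs, the difference between genotypes it was selected on, and not in chamber EdCs. In cushion EdCs its level was 0.125 and 0.114 in the controls, against 0.267 and 0.200 in the mutants, from 48 and 55 *Rprm* UMIs against 86 and 109. Both *Tie2-cko* libraries thus lay above both controls, and the log2 fold change was 0.95. In chamber EdCs the level was 0.0573 and 0.0385 in the controls, against 0.0396 and 0.0525 in the mutants, from 39 and 38 UMIs against 20 and 32, and the genotypes overlapped. In vascular endothelial cells, where *Rprm* had its highest mean, the genotypes overlapped as well (0.195 and 0.725 against 0.308 and 0.852).

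In cushion EdCs *Myc* too had both mutants (0.149 and 0.132) above both controls (0.0786 and 0.126), and its log2 fold change there was 0.41 (standard error 0.27, adjusted p = 1.00 from edgeR). None of the 8 genes with a p was called in cushion EdCs, where 0.0356% of 11243 genes were called and DESeq2 called none of the 8 as well, and none of the 8 had an unadjusted p under 0.05. Genotypes did not overlap for 27.6% of all genes tested there. Over all EdCs *Myc* had a difference on the log2 scale of 0.48 (standard error 0.15, adjusted p = 0.859) and *Cdkn1b* of 0.34 (standard error 0.14, adjusted p = 0.908), where 0.00798% of 12535 genes were called and none of the 8. With the block for libraries 5 and 6 *Myc* passed at 0.48 (adjusted p = 0.0429), as did 3.5% of all genes.

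**Figure D4:**
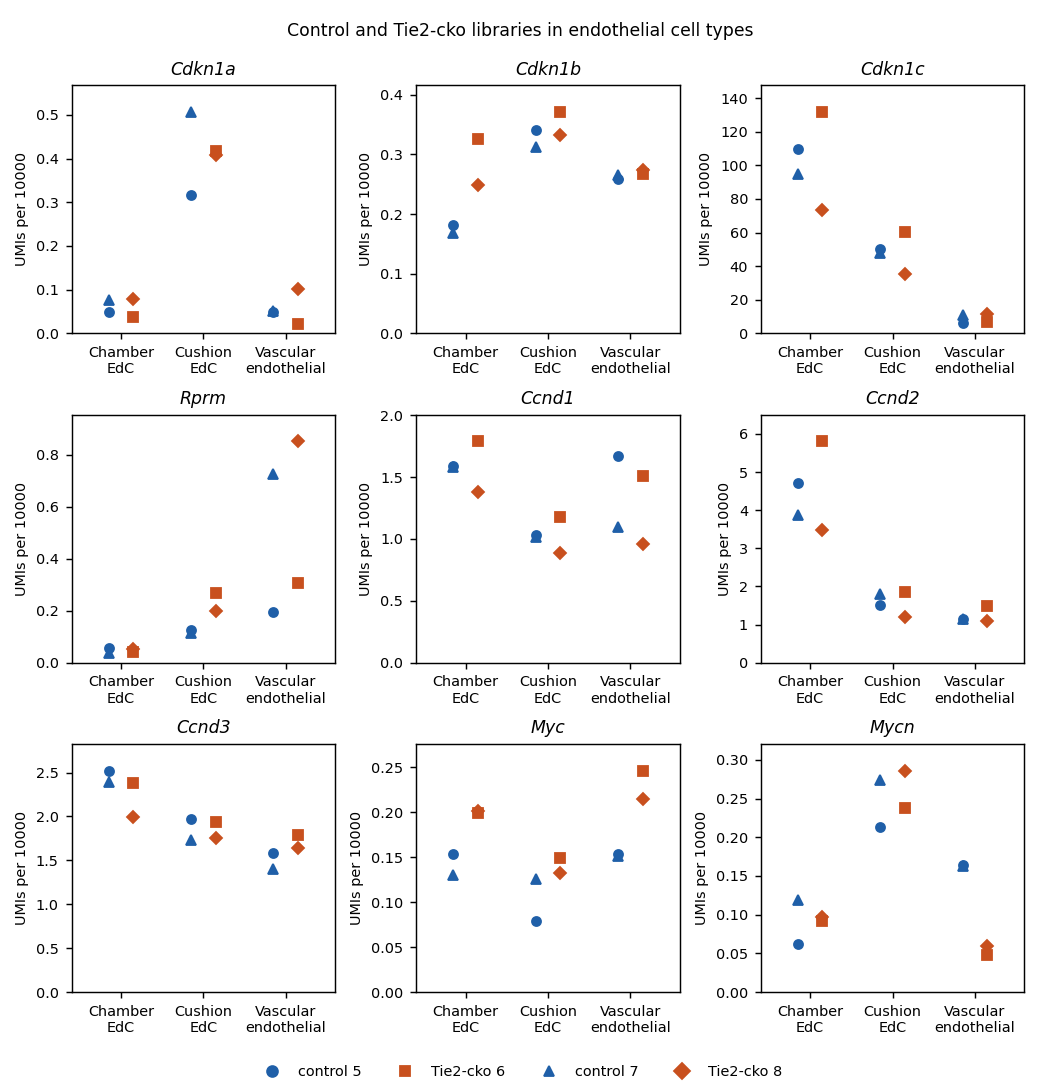
Levels (vertical axes from 0, UMIs per 10000) in chamber EdCs, cushion EdCs and vascular endothelial cells, with 1 point per library (blue, control 5 and 7; orange, Tie2-cko 6 and 8). *Myc* and *Cdkn1b* in chamber EdCs and *Rprm* in cushion EdCs show both Tie2-cko points above both control points, while those of *Cdkn1c*, *Ccnd1* and *Ccnd2* overlap.

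In vascular endothelial cells, which kept their *Tek* level, *Mycn* was 0.164 and 0.162 in the controls, against 0.0483 and 0.0597 in the mutants. *Myc* was 0.154 and 0.151 in the controls, against 0.246 and 0.215 in the mutants. *Cdkn1b* (0.259 and 0.265 against 0.267 and 0.273) and *Ccnd3* (1.58 and 1.4 against 1.79 and 1.64) also lay higher in both mutants. These 4 of the 9 genes had no overlap between genotypes, beside 25.6% of the 9138 genes with a mean level of at least 0.05 there, and with 66 to 98 cells per library they were not tested.

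Outside the endocardium no gene of the 9 was called between genotypes. Over all CMs none of 9 was called where 0% of 15554 genes were, with 61 genes and none of the 9 at an unadjusted p under 0.05, and DESeq2 called 1 gene and none of the 9. *Mycn* alone separated the genotypes there, against 19.9% of all genes tested, and the log2 fold change was 0.12 (standard error 0.12). In MCs none of 9 was called where 0% of 12729 genes were (127 at an unadjusted p under 0.05, 7 by DESeq2). In epicardial cells none of 8 was called where 0.0335% of 11955 genes were, and the largest difference was that of *Cdkn1a* at 0.58 (standard error 0.27, adjusted p = 1.00 by edgeR), from levels near those of red blood cells. None of the genes had an unadjusted p under 0.05 in MCs, epicardial cells or any CM region.

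The wider machinery of the G1/S step was followed with a list of 41 genes that holds the INK4 inhibitors, E cyclins, CDK2, CDK4 and CDK6, the RB and E2F families, the partners and antagonists of MYC, and other genes of arrest. In chamber EdCs 37 were tested and none was called by edgeR. Of these 18 lay above 0 and 19 below, with a median log2 fold change of -0.01 beside 0.01 for all genes, and 3 had an unadjusted p under 0.05. In cushion EdCs none of 39 was called, with a median of -0.01 beside 0.00 for all genes and 1 gene at an unadjusted p under 0.05. With the block for libraries 5 and 6, 4 of the 37 passed in chamber EdCs, where that fit called 8.73% of all genes, so that the count is near the background. They were *Ccne1*, which encodes cyclin E1 (-0.55, adjusted p = 1.70e-05), *Mxd3* (-0.45, adjusted p = 0.0331), *Skp2*, which targets p27 for degradation (-0.37, adjusted p = 0.0260), and *Mnt*, an antagonist of MYC (0.73, adjusted p = 0.0430).

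*Btg2*, an antiproliferative gene of the list, passed with the block in ventricular CMs (-0.52, adjusted p = 3.75e-07), atrial CMs (-0.63, adjusted p = 0.00682), epicardial cells (0.90, adjusted p = 2.31e-08) and all EdCs (0.37, adjusted p = 0.0397). That fit called 1.13% of all genes in ventricular CMs, 0.271% in atrial CMs, 0.527% in epicardial cells and 3.5% in all EdCs. *Btg2* passed too in ventricular CMs without control library 5 (-0.88, adjusted p = 0.0224) and in epicardial cells without *Tie2-cko* library 8 (0.95, adjusted p = 0.0135). In each of the 10 cell types compared the list had 0 calls without the block when all 4 libraries were kept.

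A comparison that the choice of genes did not use was made within each library, between cells that held a UMI of *Mki67* or *Top2a*, genes of growing and dividing cells, and cells that held none. Cells were thinned to 5500 UMIs, counts were summed per library and class, and the library was kept as a block, so that each of the 4 libraries gave a difference of its own. With 4 differences per gene, the p-values of this comparison rest largely on the spread borrowed from other genes. Very small ones do not stand for replication over embryos. Cells under 5500 UMIs were left out, among them 152 of 1395 CMs in library 6 and 62 to 67 CMs in each of the others. Cells with a UMI are called marker-positive here. A cell without a UMI may still be dividing, and free RNA may give a UMI to a cell that is not. No cell type without division was at hand to measure that background. The lowest share with a UMI was 23.5%, in sinus venosus and atrioventricular canal CMs of library 7, and the highest was in immune cells or platelets (75% to 86.2%). The share of chamber EdCs with a UMI was 50% and 58.0% in the controls, against 45.2% and 42% in the mutants, so that both mutants lay below both controls, which was not tested. The levels of *Mki67* (0.744 to 1.04) and *Top2a* (1.82 to 2.52) in chamber EdCs each overlapped between genotypes. In cushion EdCs the shares were 47.9% and 41.7% in the controls, against 36.8% and 43.8% in the mutants, which overlapped.

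*Ccnd2* was higher in marker-positive CMs and chamber EdCs and lower in marker-positive cushion EdCs and MCs. The difference between these cell types was not tested. In CMs the level was 5.23 ± 0.70 with and 3.33 ± 0.51 without a UMI of the markers (SD, n = 4), higher in 4 of 4 libraries, and the log2 fold change was 0.61 (standard error 0.04, adjusted p = 1.70e-35 by edgeR). In MCs it was 2.04 ± 0.23 with and 2.99 ± 0.30 without, lower in 4 of 4 libraries, and the log2 fold change was -0.58 (standard error 0.05, adjusted p = 4.09e-17 by edgeR). In cushion EdCs the log2 fold change was -0.59 (standard error 0.11, adjusted p = 3.09e-06), and in chamber EdCs 0.21 (standard error 0.06, adjusted p = 0.00871, higher in 4 of 4 libraries). Within ventricular CMs alone the *Ccnd2* difference was 0.28 (adjusted p = 1.34e-08 by edgeR). MCs pool several clusters, within which *Ccnd2* was not compared. The chamber call was lost by DESeq2 and without library 6 (0.18) or 7 (0.18). In epicardial cells, where *Ccnd2* was highest, the difference was -0.01 (standard error 0.05, adjusted p = 0.915).

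*Cdkn1b* was higher in marker-positive cells of 4 of the 5 cell types, and in cushion EdCs the difference was 0.51 (adjusted p = 0.182, higher in 3 of 4 libraries). In the other 4 its log2 fold change was 0.87 (standard error 0.22) in chamber EdCs, 0.67 (standard error 0.21) in epicardial cells, 0.64 (standard error 0.14) in MCs and 0.31 (standard error 0.08) in CMs, with adjusted p of 0.00516, 0.0134, 4.40e-04 and 6.53e-04 from edgeR, and the level was higher in 4 of 4 libraries in each. DESeq2 called *Cdkn1b* in none of these 4 cell types. The call was also lost without library 8 in chamber EdCs (0.76), without library 7 in MCs (0.45), and without library 6 (0.59), 7 (0.54) or 8 (0.77) in epicardial cells. *Cdkn1a* was too low to be tested in chamber EdCs and epicardial cells, and in cushion EdCs its difference was -0.23 (adjusted p = 0.644). It was lower in marker-positive MCs, 0.179 ± 0.045 against 0.386 ± 0.050 (SD, n = 4), and the log2 fold change was -1.03 (standard error 0.14, adjusted p = 3.64e-09 by edgeR), and in marker-positive CMs at -0.70 (standard error 0.08, adjusted p = 3.24e-14). Within ventricular CMs alone the *Cdkn1a* difference was -0.34 and no longer passed (adjusted p = 0.0729).

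*Cdkn1c* was called lower in marker-positive cells of 4 of the 5 cell types, and not in chamber EdCs, where it was highest. In cushion EdCs the level was 42.2 ± 9.14 with and 53.2 ± 11.2 without a UMI of the markers (SD, n = 4), lower in 4 of 4 libraries, and the log2 fold change was -0.35 (standard error 0.04, adjusted p = 1.52e-17 by edgeR). The log2 fold change was -0.27 in MCs, -0.21 in CMs and -0.14 in epicardial cells, each past the threshold and lower in 4 of 4 libraries. The epicardial call was lost when libraries were scaled by total UMIs (-0.07, adjusted p = 0.0949 by edgeR), so that the count of 4 depends on the scaling. In chamber EdCs the level was 105 ± 22.7 with and 103 ± 28.6 without (SD, n = 4), higher with the markers in 3 of 4 libraries, and the log2 fold change was -0.04 (standard error 0.03, adjusted p = 0.324). The difference between chamber EdCs and the other cell types was not tested.

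*Ccnd1* was lower in marker-positive cushion EdCs (-0.44, adjusted p = 0.0101), MCs (-0.31, adjusted p = 2.71e-08) and epicardial cells (-0.24, adjusted p = 0.00107). In chamber EdCs it did not pass, with a difference of 0.04 (adjusted p = 0.834) and a higher level in 4 of 4 libraries (1.78 ± 0.33 against 1.57 ± 0.15, SD, n = 4). Over all CMs its difference was -0.06 (adjusted p = 0.532), and within ventricular CMs alone -0.30 (adjusted p = 0.00130). Lower too was *Ccnd3* in CMs (-0.26), MCs (-0.26) and chamber EdCs (-0.23, adjusted p = 0.0350). The *Ccnd1* call was lost without library 8 in cushion EdCs (-0.34) and without library 5 in epicardial cells (-0.15), and by DESeq2 in both. That of *Ccnd3* was lost without library 7 in MCs (-0.20) and without library 5 (-0.24) or 7 (-0.14) in chamber EdCs, and by DESeq2 in both. *Mycn* was higher in marker-positive CMs at 0.44 (standard error 0.08, adjusted p = 2.20e-06 by edgeR), and within ventricular CMs alone the difference was 0.09 (adjusted p = 0.503). It was not called in chamber EdCs (0.13), cushion EdCs (-0.32), MCs (-0.02) or epicardial cells (-0.15). *Myc* was not called in any of the 3 cell types in which it passed the filter on low counts, chamber EdCs, cushion EdCs and MCs. *Rprm* passed that filter in cushion EdCs only, where it was -0.61 (standard error 0.31, adjusted p = 0.281).

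**Figure D5:**
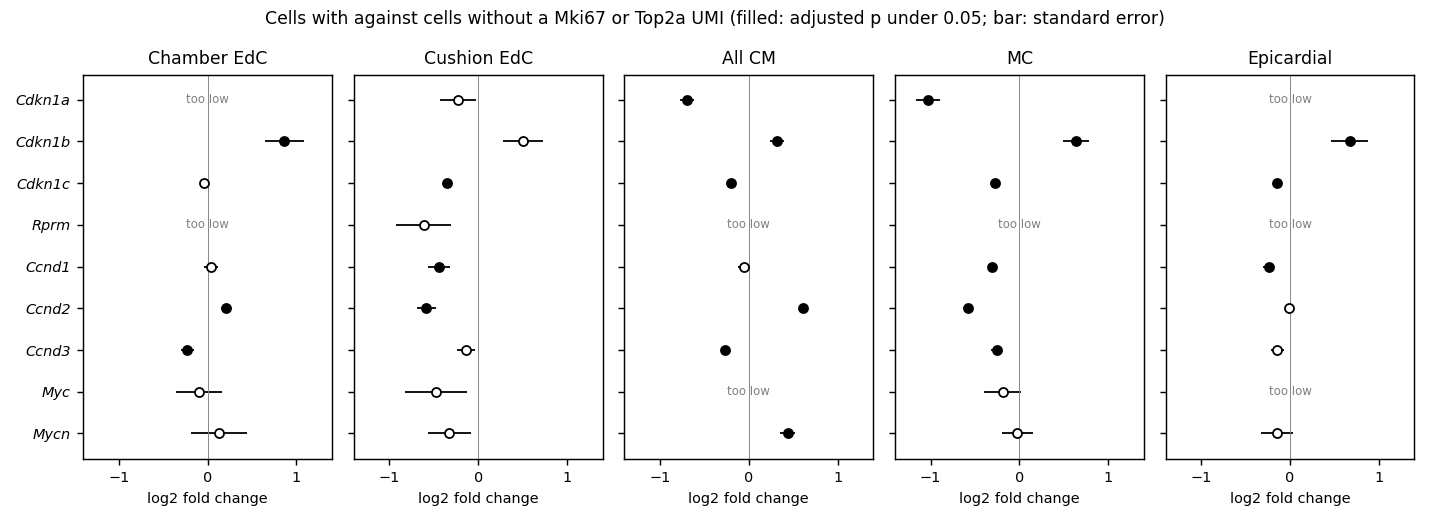
Log2 fold change (horizontal axis) of each gene between cells with and without a UMI of *Mki67* or *Top2a* in 5 cell types, with the standard error as a bar, filled points for adjusted p under 0.05 and "too low" for genes removed by the filter on low counts. *Ccnd2* lies at 0.61 in CMs and at -0.58 in MCs, *Cdkn1b* is above 0 in all 5 panels, and *Cdkn1c* is closest to 0 in chamber EdCs (-0.04).

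By counts, 2 of 7 genes were higher and 1 lower in marker-positive chamber EdCs, beside 6.03% and 7.42% of all genes tested. In cushion EdCs 0 of 9 were higher and 3 lower, beside 5.01% and 2.38%. In CMs 3 of 7 were higher and 3 lower (18.8% and 20.1%), in MCs 1 of 8 higher and 5 lower (8.18% and 8.15%), and in epicardial cells 1 of 6 higher and 2 lower (6.52% and 8.26%). The balance of higher and lower calls depended on scaling. With total UMIs in place of TMM the median of all genes rose by 0.09 in chamber EdCs, 0.08 in epicardial cells, 0.06 in CMs, 0.04 in MCs and 0.02 in cushion EdCs. The share of calls that were higher went from 44.8% to 74% in chamber EdCs, from 44.1% to 73.4% in epicardial cells, from 48.3% to 61.5% in CMs and from 50.1% to 62.3% in MCs. Under that scaling *Ccnd3* in chamber EdCs (-0.14, adjusted p = 0.25) and *Cdkn1c* (-0.07, adjusted p = 0.0949) and *Ccnd1* (-0.16, adjusted p = 0.0564) in epicardial cells no longer passed, and *Cdkn1c* in chamber EdCs stood at 0.05 (adjusted p = 0.241).

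Of the list of 41 G1/S genes, 18 of the 37 tested in CMs were higher in marker-positive cells and 4 were lower, beside 18.8% and 20.1% of all genes, with a median log2 fold change of 0.16 beside -0.01 for all genes. In chamber EdCs 6 of 27 were higher and 1 lower, beside 6.03% and 7.42% of all genes. In cushion EdCs 5 of 25 were higher and 1 lower (5.01% and 2.38%), and in MCs 10 of 37 and 2 (8.18% and 8.15%). In epicardial cells 6 of 27 were higher and 2 lower (6.52% and 8.26%). Much of the list is machinery of the cell cycle, as are the markers, so that more higher calls were likely before the test. The 4 lower genes in CMs were *Btg1*, *Btg2*, *Mxd4* and *Mxi1*, which are known for arrest or for opposing MYC. *Mxd4* was the gene lower in all 5 cell types, from -0.37 in chamber EdCs to -0.80 in MCs. *Cdkn2d*, an INK4 inhibitor, was higher in all 5, from 0.40 in CMs to 0.89 in cushion EdCs, and *Ccne1* reached 1.74 in cushion EdCs (adjusted p = 5.31e-10 by edgeR). *Mxd3*, the MXD member known to peak in dividing cells, was higher by 1.91 to 2.09 in chamber EdCs, CMs, MCs and epicardial cells.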

How the data were processed

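Single cells of 4 libraries, 2 per genotype, were analysed. The authors deposited UMI counts per gene and barcode made with Cell Ranger, version 6.1.2 by the file headers, on mm10 by the submitters' processing notes, without normalization. The methods name another version. Barcodes were kept with at least 500 genes, 1000 UMIs and at most 10% mitochondrial UMIs, and the highest Scrublet scores (scanpy 1.11.5) were removed at 0.8% per 1000 barcodes. Seurat 5.3.0 used 2000 variable genes without the 53 genes compared here, 30 components and resolution 0.8 (1.2 for the finer CM clusters). Clusters were named when at least 3 and over 0.5 of a marker list were present. Low-UMI clusters (3904 cells) and unmatched clusters (4660) stayed unnamed.

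For each cell type the UMI counts of a library were added up and tested with edgeR 4.0.16 (TMM, filterByExpr, quasi-likelihood test, Benjamini-Hochberg over all genes, threshold 0.05), with DESeq2 1.42.0 as an alternative. Standard errors are the absolute log2 fold change over the square root of F. On simulated data in which 200 genes were shifted by a log2 fold change of 1, the genotype test recovered 115 in chamber EdCs with 7 false calls and 131 in CMs with 8, and the test of marker-positive cells 171 in chamber EdCs with 7. For the genotype test the counts were drawn from fitted means and a trend of spread, without a difference between library pairs. Recovery in the real libraries may therefore be lower. Median depth was 17433, 25875, 14878 and 16961 UMIs per kept cell in libraries 5, 6, 7 and 8. Genes, lists and comparisons were chosen with earlier results of these data known. Named genes are the 9 genes, *Tek*, the markers, list members past the threshold in a fit, and the 3 most alike profiles, which for *Ccnd3* are not reported here.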

Additional observations from a re-analysis of the deposited data

Results flagged for a closer look

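*Myc* lay on opposite sides of the controls in different cell types, which was not tested as a difference. Both *Tie2-cko* libraries were above both controls in chamber EdCs (log2 fold change 0.57, standard error 0.17) and cushion EdCs (0.41, standard error 0.27). The same held in epicardial cells (0.44, standard error 0.25) and outflow tract CMs (0.23, standard error 0.41). Both were below both controls in ventricular CMs (-0.23, standard error 0.31). For outflow tract and ventricular CMs the value was smaller than its standard error. The ventricular value rests on 35 and 36 *Myc* UMIs in the controls, against 29 and 34 in the mutants, at levels of 0.00431 to 0.00659 UMIs per 10000. Without 1 library the outflow tract value ran from -0.13 to 0.48, and its direction turned without library 8. Vascular endothelial cells, neural cells and atrial CMs also had both mutants above both controls, with no test. With 2 libraries per genotype, a separation in either direction was found for 34.4% of the genes tested in chamber EdCs, 27.6% in cushion EdCs, 24.8% in epicardial cells, 25% in outflow tract CMs and 24.2% in ventricular CMs.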

How the results depend on the processing

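No paired analysis was possible because no 2 libraries share a replicate number and the sources do not say which control was matched with which mutant. An assumed pairing, the block for libraries 5 and 6 against 7 and 8, was chosen with earlier results known. It called 8.73% of all genes in chamber EdCs, 3.5% over all EdCs, 1.13% in ventricular CMs, 0.271% in atrial CMs and 0.527% in epicardial cells. It gave 2 of the genes called in chamber EdCs and 1 over all EdCs in place of 0, and for the G1/S list 4 in chamber EdCs, 3 over all EdCs and 1 each in ventricular CMs, atrial CMs and epicardial cells in place of 0. Leaving out 1 library gave 0 to 1 list genes in ventricular CMs and 0 to 1 in epicardial cells, and, for marker-positive against other cells, 1 to 2 of the genes in chamber EdCs in place of 3. DESeq2 called 0 of these genes in place of 3 in chamber EdCs and 1 in place of 3 in epicardial cells, where scaling by total UMIs also gave 1. That scaling and the fit of ventricular CMs alone were added after seeing the data. *Rprm* in chamber EdCs, -0.22 as fitted, ranged from -0.52 to 0.021 when 1 library was left out, with 0.021 without *Tie2-cko* library 6, and turned to 0.16 with more doublets removed. The cause of these changes was not tested. Of 1282 log2 fold changes under an alternative, 1155 kept their side of the threshold and direction or moved by less than their spread. Of the rest, 94 moved further, 27 calls were lost, 4 were gained and 2 values (*Rprm* above) turned sign. Counted within these groups are 128 values that changed sign while not called in either fit. Levels moved beyond the spread in 12 of 234 comparisons and shares of cells with a UMI, which depend on the depth of thinning, in 86 of 117. Depth limits *Cdkn1a* in chamber EdCs, *Myc* in CMs and *Rprm* in most cell types.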
